A study of Rattus norvegicus with 6 samples.

Results

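The genes examined were 10 members of the intermediate filament family, 7 that encode filament proteins of the cytoplasm (Vim, Des, Nes, Synm, Krt8, Krt18 and Krt19) and 3 that encode the lamins of the nucleus (Lmna, Lmnb1 and Lmnb2). They were found by symbol among the 21857 symbols of the count files, and all 10 had counts in every library. The libraries came from cultured neonatal rat cardiac fibroblasts (NRCFs). The design text calls the rats Sprague-Dawley, while the strain label reads Noway. In 3 libraries (genotype label WT) the cells had received an empty plasmid and are called Vector, and in 3 they had received a plasmid for FTO, an enzyme that removes methyl groups from adenosines in RNA. Per the methods of the study, the plasmid carried rat FTO in pcDNA 3.1. Whether the sequenced cells were also kept at low oxygen is not stated for these libraries.

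Intermediate filaments are rope-like polymers that give cells mechanical strength. Vimentin is the main filament protein of fibroblasts, and desmin that of muscle cells, where it ties the contractile apparatus to the membrane. Nestin and synemin do not build filaments alone and join those of vimentin or desmin. Keratins 8, 18 and 19 belong to simple epithelia, where a type II keratin (Krt8) always pairs with a type I keratin (Krt18 or Krt19). Lamins line the inside of the nuclear envelope. A-type lamins come from Lmna, which yields lamin A and lamin C by alternative splicing, and B-type lamins come from Lmnb1 and Lmnb2.

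Total counts were 13178952 to 17857999 per library. Libraries of the same group correlated at 0.9975 to 0.9985 in log2(CPM + 1) across genes, those of different groups at 0.9613 to 0.9638. CPM is the read count scaled to library size. Replicates were not copies of each other, since their chi-square per gene was 1.577 to 8.384. Fto itself was at 88.3 ± 1.2 CPM in Vector and 92.3 ± 1.32 CPM in the other group (SD, 3 libraries each), or 0.06 on the log2 scale (SE 0.0468, edgeR adjusted p = 0.239). No rise of Fto was therefore detected in these counts, and the second group is called the libraries labelled FTO. The study reports that it checked its FTO transfection by qRT-PCR and by FTO protein. It also reports fewer of these methyl marks on RNA after that transfection. Whether those checks were made on the sequenced cells is not stated.

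All 10 genes entered the edgeR test, Krt18 through its counts in the libraries labelled FTO alone. The call of Krt18 is therefore counted in what follows as a description and is no support. Of the 10, 5 rose (Des, Krt8, Krt18, Lmnb1 and Lmnb2) and 3 fell (Vim, Nes and Lmna) at an adjusted p-value under 0.05, while Synm and Krt19 did not pass. Among all 12941 genes tested, 65.9% passed this threshold, 33.2% upward and 32.8% downward, so 8 calls among 10 genes is a share near that of the whole table. At the threshold of the study (at least 2-fold, a log2 change of 1, with an unadjusted p-value under 0.05) 5 of the 10 passed, against 19.6% of all genes (10.4% upward and 9.27% downward). Vector and FTO-labelled CPM values had no overlap for 8 of the 10, against 70.3% of all genes. These shares of all genes also stand behind the counts of every gene list below. The median log2 fold change was 0.39 over the 10 genes and 0.00 over all genes tested, and the 10 spread from -3.14 to 4.24 (4.245 before rounding).

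The sequences just upstream of 4 of the genes, those with the largest rises (Des and Krt18) and falls (Vim and Nes), are shown because these genes moved in opposite directions. Each is the stretch of 250 bases that ends at the base before the transcription start in RefSeq on the GRCr8 build. It is written 5′ to 3′ along the gene, with matches to 3 core promoter motifs in capitals, on either strand, which are spelled out after the sequences. The positions are chr17:81577011-81577260 (plus strand) for Vim, chr9:84299376-84299625 (plus strand) for Des, chr2:175736338-175736587 (plus strand) for Nes and chr7:135035918-135036167 (plus strand) for Krt18.
Vim: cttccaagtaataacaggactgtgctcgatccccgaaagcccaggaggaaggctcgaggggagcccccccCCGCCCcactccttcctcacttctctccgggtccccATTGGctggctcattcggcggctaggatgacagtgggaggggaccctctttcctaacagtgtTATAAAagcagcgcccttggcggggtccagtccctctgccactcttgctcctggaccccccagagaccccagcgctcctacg
Des: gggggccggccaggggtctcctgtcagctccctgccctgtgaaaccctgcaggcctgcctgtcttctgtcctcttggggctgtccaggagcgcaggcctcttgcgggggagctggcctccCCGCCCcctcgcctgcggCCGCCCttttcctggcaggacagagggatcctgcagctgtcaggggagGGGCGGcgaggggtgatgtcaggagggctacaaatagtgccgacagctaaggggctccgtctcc
Nes: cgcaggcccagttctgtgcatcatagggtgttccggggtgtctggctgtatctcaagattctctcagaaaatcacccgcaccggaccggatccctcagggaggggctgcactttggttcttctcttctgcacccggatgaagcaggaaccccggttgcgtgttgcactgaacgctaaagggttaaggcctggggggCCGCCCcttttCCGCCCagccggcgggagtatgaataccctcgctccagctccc
Krt18: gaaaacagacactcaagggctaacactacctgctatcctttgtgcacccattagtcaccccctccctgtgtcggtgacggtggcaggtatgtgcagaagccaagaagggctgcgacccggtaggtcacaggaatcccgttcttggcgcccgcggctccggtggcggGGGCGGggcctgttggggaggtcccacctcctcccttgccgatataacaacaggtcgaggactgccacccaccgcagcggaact
The GC box (GGGCGG, searched on both strands) was found in 5 of the 9 windows held for the 10 genes, the 4 shown and Lmna, and in 30.5% of the 33465 rat promoters of the same length. Des has 3 matches, Nes 2, and Vim and Krt18 1 each. The Vim window also holds a TATA box (TATAAA, in 12.9% of all promoters) and a CCAAT box (34.0% of all promoters), and those of Des, Nes and Krt18 hold neither. In none of the 9 windows was a match found to the AP-1 site (TGANTCA, 6.34% of all promoters), the STAT site (TTCNNNGAA, 7.67%), the interferon-stimulated element (3.41%), the NF-kB consensus (0.0956%) or the CArG box (1.5%). A match is a description of the letters and was not tied to binding or to the changes in counts.

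The fibroblast filament gene and the muscle filament gene moved in opposite directions. Vim was at 3280, 3090 and 3110 CPM in Vector replicates 1, 2 and 3 and at 1210, 1330 and 1200 CPM in FTO-labelled replicates 1, 2 and 3. Every library labelled FTO lay far under every Vector library. Vim fell 2.53-fold (95% interval 2.36 to 2.71), or -1.34 on the log2 scale (SE 0.0463, edgeR adjusted p = 9.6e-13), and 6.27% of all genes tested had a lower log2 fold change. Since these are bulk cultures, fewer cells of a type and less RNA per cell cannot be told apart.

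Des was at 91.8, 84.4 and 83.0 CPM in the Vector libraries and at 461, 502 and 455 CPM in those labelled FTO, again with a wide gap between the groups. The rise was 5.47-fold (95% interval 5.05 to 5.92), or 2.45 on the log2 scale (SE 0.0536, edgeR adjusted p = 3.8e-15). Markers of muscle cells moved too. Of 11 cardiomyocyte markers 10 rose, and their summed level went from between 1780 and 1810 CPM to between 2790 and 2890 CPM. The exception was Tnnt2, cardiac troponin T, the most abundant of them in reads, at 770 ± 7.94 and 649 ± 22 CPM. Reads of Des amounted to 4.66% to 5.14% of that sum in Vector and 16.2% to 17.4% in the libraries labelled FTO. Smooth muscle and pericyte markers went the other way as a list, with 8 of 10 tested lower and 2 higher (Abcc9 and Kcnj8), and a summed level of 10300 to 10600 CPM in Vector against 1560 to 1680 CPM. Most of the Vector sum was Acta2 (5720 ± 65.1 against 485 ± 8.03 CPM) and Tagln (2820 ± 58.7 against 194 ± 7.13 CPM). The study uses α-SMA, the protein of Acta2, as a fibrotic marker, so this list need not mark smooth muscle cells alone. Of 6 skeletal muscle markers, the regulators Myod1, Myf5 and Pax7 had no count in any library, and Myog and Myf6 had a mean of 1.83 and 0.667 reads. Myh3, embryonic myosin, was at 3.77 ± 1.01 CPM in Vector and 0.157 ± 0.151 CPM in the libraries labelled FTO, opposite to Des, and entered the test through its Vector counts alone. The part of these cell types in the change of Des was not tested.

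**Figure D1:**
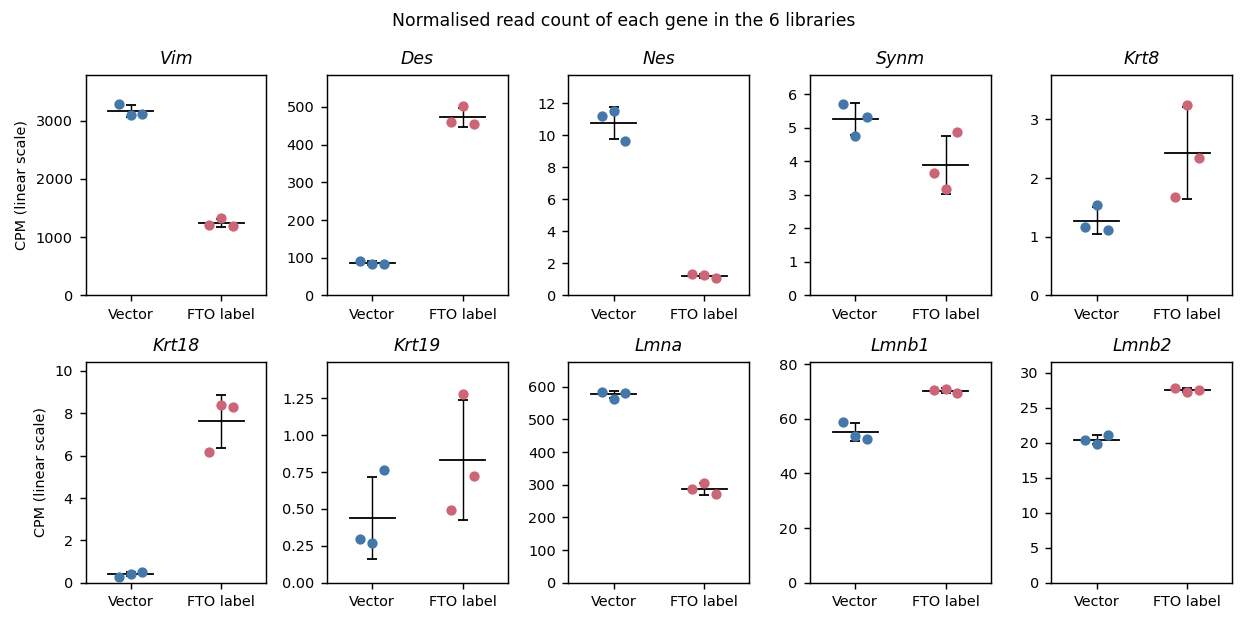
Normalised read count (CPM, linear axis from 0) of the 10 genes in each library, Vector in blue and the libraries labelled FTO in red, with the mean (horizontal line) and SD (bars) of 3 libraries. The groups are apart for 8 genes and overlap for Synm and Krt19, with Vim falling from about 3160 to 1250 CPM and Des rising from 86.4 to 472 CPM.

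Of the genes whose proteins join vimentin or desmin, Nes fell and Synm did not pass the test. Nes, a gene known from progenitor cells and growing muscle, was at 11.2, 11.5 and 9.63 CPM in the Vector libraries and at 1.33, 1.28 and 1.06 CPM in the libraries labelled FTO, where 17 to 19 reads were counted per library. It had the largest fall of the 10 genes, 8.82-fold (95% interval 6.79 to 11.5), or -3.14 on the log2 scale (SE 0.177, edgeR adjusted p = 3.9e-10). Of 4 Schwann and neural markers tested 3 fell (Sox10, which entered through its Vector counts alone, S100b and Erbb3), and their summed level went from between 19.6 and 24.1 CPM to between 9.44 and 9.61 CPM. Reads of Nes amounted to 43.7% to 57.1% of that sum in Vector and 11.0% to 13.9% in the FTO-labelled group. Against the sum of the smooth muscle and pericyte markers, reads of Nes amounted to 0.0930% to 0.111% in Vector and 0.0633% to 0.0835% in the FTO-labelled group. Endothelial markers moved opposite to Nes, as 4 of 6 tested rose and 1 fell. Their summed level went from between 33.0 and 36.0 CPM in Vector to between 57.0 and 61.7 CPM in the FTO-labelled group. The part of these cell types in the fall of Nes was not tested.

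Synm, the synemin gene, was at 5.71, 4.76 and 5.33 CPM in Vector and at 3.65, 3.17 and 4.86 CPM in the libraries labelled FTO. Replicate 3 of the latter overlapped the Vector group. The difference was -0.41 on the log2 scale (SE 0.181, unadjusted p 0.039, edgeR adjusted p = 0.0582), and the fold change lay between 0.576 and 0.984 in its 95% interval. Without FTO replicate 3 the change was -0.62 at an edgeR adjusted p of 0.0085, in a range of 0.0085 to 0.186 over the alternatives.

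The epithelial keratins were near the limit of detection in Vector, and the type I keratin Krt18 rose most of the 10 genes. Krt18 had 4, 6 and 7 reads in Vector replicates 1, 2 and 3 and 88, 111 and 149 reads in the libraries labelled FTO, or 0.293 to 0.485 CPM against 6.17 to 8.38 CPM. The counts of the groups were far apart. The fold was 19.0, or 4.24 on the log2 scale (SE 0.266), and 98.6% of all genes tested had a lower log2 fold change. Since Krt18 entered the test through the libraries labelled FTO alone, these values are a description. No p-value is given for it. RefSeq names 7 further copies of Krt18 in the rat, 6 of them pseudogenes, and 0 of these have a row in the files, so whether reads from them are in this count is unknown.

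Krt8, the type II partner, which lies next to Krt18 on chromosome 7 with 0 protein-coding genes between them, had 16, 23 and 16 reads in Vector and 24, 43 and 42 reads in the libraries labelled FTO. In CPM the groups lay side by side without overlap, at 1.11 to 1.54 and 1.68 to 3.25. Krt8 rose by 0.91 on the log2 scale (SE 0.290, edgeR adjusted p = 0.0123). This call rests on few reads, as it was lost without Vector replicate 3 (0.81, adjusted p 0.0522) and without FTO replicate 2 (0.68, adjusted p 0.063), in a range of 0.00574 to 0.063 over the alternatives. Krt19, the other type I keratin, had 4, 4 and 11 reads in Vector and 7, 17 and 13 in the libraries labelled FTO, with overlapping groups. Its difference was 0.88 on the log2 scale (SE 0.498, edgeR adjusted p = 0.135), with a 95% interval of the fold change from 0.877 to 3.84. Without Vector replicate 3, which held the 11 reads, it was 1.51 (1.515 before rounding) at an edgeR adjusted p of 0.0439, in a range of 0.0439 to 0.453.

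Among mesothelial and epithelial markers, 4 of 5 tested rose (Msln, Upk1b, Lrrn4 and Wt1) and 1 fell (Upk3b, from 4.61 ± 0.322 to 2.58 ± 0.535 CPM). The list went from a summed 37.9 to 39.0 CPM to 136 to 154 CPM. Msln, mesothelin, made up most of that sum in the libraries labelled FTO, at 2.83 ± 0.678 CPM in Vector and 87.1 ± 5.64 CPM there. The epithelial defining markers Cdh1, Epcam and Cldn4 were too low to be tested, with a mean of 4.33, 1.33 and 1.83 reads per library. Reads of Krt18 amounted to 0.753% to 1.28% of the summed list in Vector and 4.06% to 6.15% of it in the libraries labelled FTO. The part of mesothelial cells in the rise of Krt18 was not tested.

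**Figure D2:**
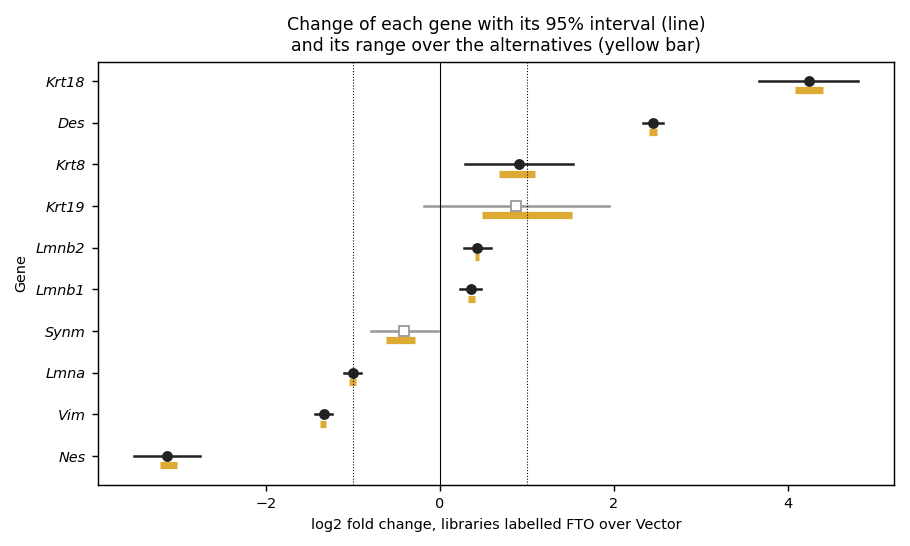
Change in the libraries labelled FTO relative to Vector, as log2 fold, for the 10 genes (horizontal axis), with the 95% interval as a line, the range over the alternatives as a yellow bar, filled circles for an adjusted p-value under 0.05 and open squares otherwise, and dotted lines at -1 and 1. Krt18 (4.24) and Des (2.45) stand to the right and Nes (-3.14) and Vim (-1.34) to the left, while the intervals of the keratins Krt8 and Krt19 are the widest.

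The make-up of the filament reads and their total are given here as values, with no test. Reads of the 7 cytoplasmic genes were 0.325% ± 0.0101 of all counts in Vector and 0.174% ± 0.0101 (SD, 3 libraries each) in those labelled FTO. Vim held 96.8% ± 0.1 of these reads in Vector and 71.9% ± 0.1 in the libraries labelled FTO, and Des held 2.64% ± 0.0651 and 27.2% ± 0.1. These are shares of reads, not of molecules, as transcript lengths were not taken into account.

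Ratios of genes within a library, which do not depend on scaling, were compared for 8 pairs. In 6 of the 8 the groups did not overlap, each with an exact permutation p-value of 0.1, the smallest that 3 against 3 libraries allow, and 0.133 after adjustment over the 8. Several pairs share a gene, and no share over other gene pairs was computed. Of single genes tested, 70.3% had no overlap in CPM. The log2 ratio of Des to Vim was -5.19 ± 0.0347 in Vector and -1.40 ± 0.00661 in the libraries labelled FTO, a 13.8-fold shift. The log2 ratio of Nes to Vim went from -8.20 ± 0.131 to -9.96 ± 0.159, a 3.40-fold shift downward. The log2 ratio of Synm to Vim went from -9.22 ± 0.0948 to -8.34 ± 0.379, a 1.85-fold shift upward. The balance of the keratin partners Krt8 and Krt18 turned over, with a log2 ratio of 1.62 ± 0.420 in Vector (more Krt8 reads) and -1.68 ± 0.275 in the libraries labelled FTO (more Krt18 reads), a 9.83-fold shift. This shift rests on Krt18, which had 4, 6 and 7 reads in Vector and entered the edgeR test through the libraries labelled FTO alone. It is a description, and its p-value is no support. The ratio of Krt19 to Krt8 overlapped between the groups, at -1.59 ± 0.963 and -1.56 ± 0.214, with an exact permutation p-value of 1.

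**Figure D3:**
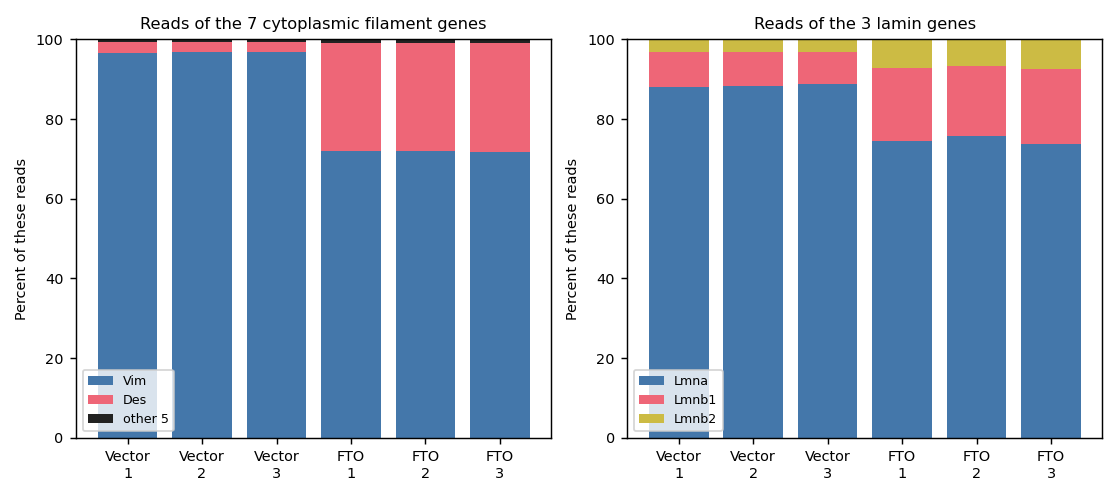
Share of reads (percent, stacked to 100) of the 7 cytoplasmic filament genes on the left and of the 3 lamin genes on the right, 1 bar per library. Des takes 27.2% of the filament reads in the libraries labelled FTO against 2.64% in Vector, and the B-type lamins Lmnb1 and Lmnb2 widen at the cost of Lmna.

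The A-type and B-type lamins also moved apart. Lmna was at 584, 563 and 582 CPM in the Vector libraries and at 286, 306 and 271 CPM in the libraries labelled FTO, with each group tight and far from the other. The fall was 2.01-fold (95% interval 1.87 to 2.15), or -1.0 on the log2 scale (SE 0.0465, edgeR adjusted p = 3.5e-11), which is at the edge of the threshold of the study. It came to lie inside a 2-fold change with library size alone (-0.996), without Vector replicate 1 (-0.998) and without FTO replicate 3 (-0.966). The files count by gene symbol, so lamin A and lamin C cannot be told apart.

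Lmnb1 was at 58.8, 53.9 and 52.6 CPM in Vector and at 70.6, 71.1 and 69.4 CPM in the libraries labelled FTO, above the Vector group in each. The rise was 1.28-fold (95% interval 1.17 to 1.39), or 0.35 on the log2 scale (SE 0.0573, edgeR adjusted p = 6.5e-05). Lmnb2 was at 20.4, 19.9 and 21.1 CPM in Vector and at 27.8, 27.2 and 27.5 CPM in the libraries labelled FTO. It rose 1.35-fold (95% interval 1.21 to 1.5), or 0.43 on the log2 scale (SE 0.0734, edgeR adjusted p = 1.1e-04). Both changes were small beside that of Lmna.

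Within libraries, the log2 ratio of Lmna to Lmnb1 went from 3.39 ± 0.0795 to 2.03 ± 0.0700, a 2.57-fold shift, and that of Lmna to Lmnb2 from 4.81 ± 0.0243 to 3.38 ± 0.0977, a 2.70-fold shift. The ratio of Lmnb1 to Lmnb2 overlapped between the groups, at 1.43 ± 0.104 and 1.35 ± 0.0281, with an exact permutation p-value of 0.4. Lmna held 88.4% ± 0.400 of the reads of the 3 lamin genes in Vector and 74.6% ± 1.01 in the libraries labelled FTO, and Lmnb1 went from 8.45% ± 0.435 to 18.3% ± 0.656 of them.

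**Figure D4:**
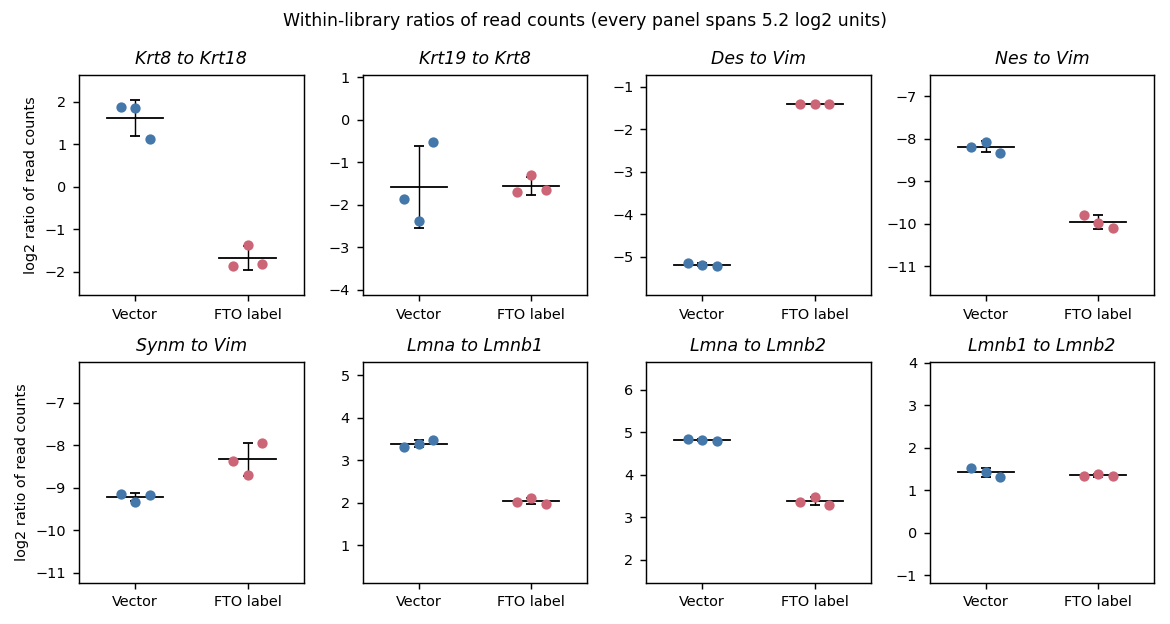
Log2 ratio of read counts of 2 genes in each library for 8 pairs, Vector in blue and the libraries labelled FTO in red, with the mean (line) and SD (bars) of 3 libraries; every panel spans the same number of log2 units. Des to Vim shifts up 13.8-fold and Krt8 to Krt18 down 9.83-fold, while Krt19 to Krt8 and Lmnb1 to Lmnb2 overlap between the groups.

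Proteins that bind lamins in the nuclear envelope were then counted. Of 19 such genes, all tested, 4 rose, 9 fell and 6 did not pass, with a median log2 fold change of -0.21 against 0.00 for all genes. The 13 that passed are a share near the 65.9% of all genes tested, of which 33.2% rose and 32.8% fell. Syne2 and Syne1, the nesprins that link the nucleus to the cytoskeleton, fell from 70.5 ± 2.10 to 36.5 ± 4.36 CPM and from 152 ± 8.15 to 94.4 ± 10.4 CPM. Emd, emerin, an inner membrane protein that binds lamin A, fell from 46.8 ± 1.63 to 26.1 ± 1.26 CPM. Sun2, an inner membrane partner of the nesprins, rose from 92.9 ± 3.34 to 111 ± 3.74 CPM, and Tor1aip1, which binds lamins as LAP1, from 59.3 ± 3.23 to 74.2 ± 1.43 CPM. Sun1, the related partner of the nesprins, fell from 83.1 ± 4.22 to 53.9 ± 3.57 CPM, opposite to Sun2. Mlip, a lamin-interacting protein of muscle, rose from 1.27 ± 0.216 to 6.16 ± 0.761 CPM, the largest change in the list (2.27 on the log2 scale, SE 0.207).

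The enzymes that attach and trim the lipid tail of prelamin A and the B-type lamins went both ways. Of 5 genes 2 rose, 1 fell and 2 did not pass, with a median log2 fold change of 0.16. Among all genes tested, 65.9% passed. Fnta and Fntb, the subunits of the enzyme that adds the tail, moved apart, at 0.28 (SE 0.0615) and -0.43 (SE 0.110) on the log2 scale. Zmpste24, the protease that makes mature lamin A, changed by 0.16 (SE 0.0583) at an edgeR adjusted p of 0.0236, which missed the threshold in 5 of the 6 fits that each left out a library (values of 0.122 to 0.167), all but the fit without FTO replicate 2.

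Because Lmnb1 is known to fall in senescent cells, proliferation genes and inhibitors of cyclin-dependent kinases are given beside the lamins. Of 18 proliferation genes 10 rose, 3 fell and 5 did not pass, with a median of 0.24. The 13 that passed are a share near the 65.9% of all genes tested, of which 33.2% rose and 32.8% fell. Rrm2, Ccne1 and Pcna, which act in DNA replication or its onset, rose by 1.10, 0.56 and 0.50 on the log2 scale. Mki67, the gene of the marker Ki-67, fell from 202 ± 6.80 to 163 ± 9.96 CPM. Ccne2 changed by -0.20 at an edgeR adjusted p of 0.0271, a call lost without Vector replicate 1 (-0.196), without Vector replicate 3 (-0.177) and without FTO replicate 2 (-0.161), and with DESeq2 (-0.204). Of 6 kinase inhibitors tested 4 rose and 1 fell. Those that rose were Cdkn2a (0.79 on the log2 scale), Cdkn2b (0.73), Cdkn1c (0.70) and Cdkn2c (0.62), and Cdkn1b (-0.53) fell. Cdkn1a, the most abundant in reads, was at 176 ± 2.43 and 174 ± 10.5 CPM and did not pass. Reads of Lmna amounted to 47.1% to 49.9% of the summed proliferation genes in Vector and 20.2% to 22.4% in the FTO-labelled group. The part of the cell cycle in the lamin changes was not tested.

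Genes that anchor or maintain cytoplasmic filaments were lower more often than higher. Of 14 linkers, chaperones and ubiquitin ligases tested (of 16 listed), 8 fell, 2 rose and 4 did not pass, with a median of -0.28 (-0.285 before rounding). The 10 that passed are a share near the 65.9% of all genes tested, of which 33.2% rose and 32.8% fell. Macf1 and Dst, large linkers between cytoskeletal systems, fell from 762 ± 26.0 to 480 ± 54.5 CPM and from 584 ± 24.9 to 407 ± 57.3 CPM, and Pkp4, a plakophilin, from 41.0 ± 1.65 to 27.8 ± 0.744 CPM. Ppl, periplakin, which binds vimentin and keratins, rose from 2.53 ± 0.166 to 46.9 ± 3.90 CPM, or 4.21 on the log2 scale (SE 0.114, edgeR adjusted p = 4.7e-14). Dtnb, a dystrobrevin, rose from 14.8 ± 0.522 to 40.1 ± 0.950 CPM.

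Of 27 other intermediate filament genes listed, 9 had enough reads to be tested. Of these 2 rose, 5 fell and 2 did not pass, with a median of -0.73, while 65.9% of all genes tested passed. Among these, Gfap, Nefm and Krt80 entered the test only through the group in which they were higher, so the counts and the median are a description. Sync, syncoilin, a partner of desmin, fell from 58.5 ± 3.25 to 16.5 ± 0.896 CPM, or -1.82 on the log2 scale (SE 0.0730, edgeR adjusted p = 5.9e-12), opposite to Des. The keratins Krt10 and Krt7 were lower by -0.73 (SE 0.111) and -0.76 (SE 0.243) on the log2 scale, also opposite to Krt18, and the call of Krt7 was lost without Vector replicate 2 (-0.57, adjusted p 0.0846, in a range of 0.00632 to 0.0846 over its alternatives). Prph, peripherin, at 1.29 ± 0.352 and 2.25 ± 0.557 CPM, had a log2 fold change of 0.79 at an edgeR adjusted p of 0.025. That call was lost without Vector replicate 2 (0.63), without Vector replicate 3 (0.73) and without FTO replicate 2 (0.59), and with DESeq2 (0.80).

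**Figure D5:**
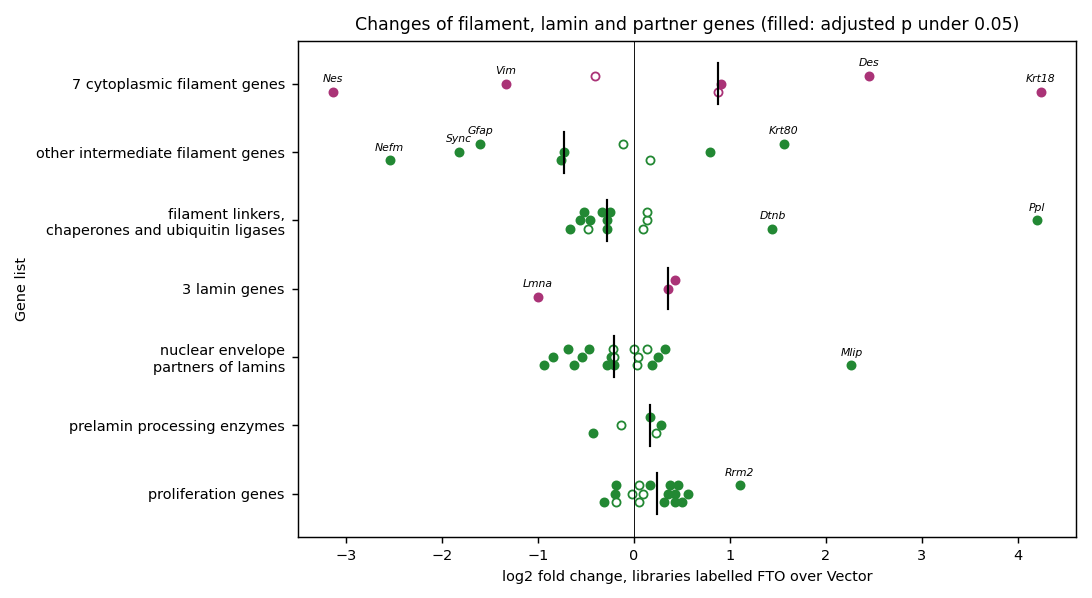
Log2 fold change of each tested gene (points) in the 7 cytoplasmic filament genes, the 3 lamin genes and 5 lists of partner genes, with a black bar at each list's median, filled points for an adjusted p-value under 0.05 and names at changes of at least 1 on the log2 scale. The 10 genes spread from -3.14 to 4.24, while most nuclear envelope and linker genes lie between -1 and 1 apart from Mlip (2.27), Dtnb (1.44) and Ppl (4.21).

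Markers of the labelled cell type were mixed. Of 9 fibroblast markers 5 rose (Dcn, Lum, Pdgfra, Thy1 and Postn) and 4 fell (Col1a1, Col3a1, Tcf21 and Ddr2). Their summed level was 38100 to 38900 CPM in Vector and 20200 to 21400 CPM in the libraries labelled FTO. Most of the Vector sum was Col1a1 (25800 ± 337 and 8270 ± 377 CPM) and Col3a1 (10700 ± 90 and 3340 ± 363 CPM). Dcn went the other way, from 47.0 ± 1.57 to 5610 ± 221 CPM, so the sum does not follow the list as a whole. Reads of Vim amounted to 7.94% to 8.6% of that sum in Vector and 5.63% to 6.59% in the FTO-labelled group. Of 7 macrophage markers, cells that also express vimentin, 6 fell and 1 rose, from a sum of 607 to 624 CPM to 187 to 215 CPM. The part of these markers in the fall of Vim was not tested.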

How the data were processed

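RNA of 6 samples was sequenced after library preparation with a commercial kit. Per the labels, the submitters' processing notes name Trimmomatic and the rn6 genome build, and the files the authors deposited hold raw counts, as whole numbers for each gene symbol. The aligner, the counting program, the annotation, the use of strand and the treatment of multi-mapping reads are not given in the sources used here.

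The genotype labels gave the groups and the titles the replicate numbers. Nothing in the labels says that the replicates came from separate cultures or animals, so p-values measure the spread between these libraries, which may be technical. Genes were kept with filterByExpr of edgeR 4.0.16 at its minimum count of 10 (12941 of 21857 symbols), scaled by TMM and compared by the two-sided quasi-likelihood test of edgeR in R 4.3.3. Benjamini-Hochberg adjustment covered all 12941 genes. The standard error (SE) of a log2 fold change was derived from the F statistic, and the 95% interval of a fold change from that SE. The threshold of the study, a 2-fold change in either direction and p under 0.05, was applied to unadjusted p-values. Ratios of genes within a library used log2 of the count plus 0.5 and were compared by a two-sided exact permutation test. Among 3 against 3 libraries that test cannot go below a p-value of 0.10, so it cannot pass 0.05.

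The 10 genes and the gene lists were chosen with earlier results of these data known. The genes named are the 10 members, Fto and, from each of 5 partner lists, up to 3 that rose and 3 that fell by the largest amount out of those past an adjusted p of 0.05 whose groups did not overlap and whose mean was 20 counts or more. Any other gene named was singled out after its values were seen. Transcript lengths of the annotation were not used here, so read shares and ratios of genes are set side by side between groups alone and do not rank genes by level. Promoter sequences come from RefSeq on the GRCr8 build, which differs from the build of the counts, and were matched by symbol for 9 of the 10 genes.

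Alternatives were DESeq2 1.42.0, limma-voom (limma 3.58.1), glmTreat against a 1.2-fold change, other scalings, other filters, other pseudocounts, the replicate number as a block, and leaving out each library. The procedure was tested on simulated counts.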

Additional observations from a re-analysis of the deposited data

How the results depend on the processing

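Vim, Des, Nes, Lmna, Lmnb1 and Lmnb2 kept their direction and their adjusted call under each of 14 alternatives, among them DESeq2, limma-voom and the fits without each library. Krt18 kept them too, but its place in the main test rested on the libraries labelled FTO alone, so this is a description and no support. The number of the 10 genes past the adjusted threshold was 7 to 9 and past the threshold of the study 4 to 6, with Krt18 counted each time. Synm passed with no filter (adjusted p-value 0.0483), with the replicate number as a block (0.046) and without FTO replicate 3 (0.0085), in a range of 0.0085 to 0.186. Replicate numbers did not pair the libraries, as deviations from the group means correlated at 0.003, -0.069 and 0.021 for equal numbers, and with the block 9 of the 10 genes passed. No member changed direction. Against a 1.2-fold change, a stricter test by construction, 6 linkers, chaperones and ligases passed in place of 10, 6 nuclear envelope partners in place of 13, 0 prelamin enzymes in place of 3 and 7 proliferation genes in place of 13. Among all 12941 genes tested, 5668 passed it in place of 8531. Of 23 partner genes named, 14 kept their call under each alternative, and the other 9 lost it in 22 of all 322 fits of the 23.

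The ratio of Krt19 to Krt8 (0.04, 0.035 before rounding) changed sign with a pseudocount of 5 (-0.177) and when single libraries were left out, from -0.361 to 0.571, so no direction is given. The cause was not tested. The other 7 ratios kept their direction. Depth limits the keratins, with 9.33 reads per library on average for Krt19 and 27.3 for Krt8. At a floor of 3 reads a level under 0.168 to 0.228 CPM could not be told from 0. Without molecular identifiers, a floor reflects counting error alone.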

Other observations

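Of 26 other intermediate filament genes with a row in the files, 9 had enough reads to be tested. The keratin genes Krt1, Krt4, Krt16, Krt17 and Krt71 had no count in any of the 6 libraries, which allows each a level of up to 0.228 CPM in the shallowest library. Nefm, the medium neurofilament chain, was at 1.07 ± 0.223 CPM in Vector and 0.162 ± 0.168 CPM (SD, 3 libraries each) in those labelled FTO, and Nefh, the heavy chain, at 0.0685 ± 0.0693 and 0.914 ± 0.508 CPM. The Vector mean of Nefh and the FTO-labelled mean of Nefm lay under the floor in CPM given above. Gfap, the filament gene of glia, was at 1.09 ± 0.402 and 0.359 ± 0.0726 CPM, and Krt80 at 0.464 ± 0.169 and 1.4 ± 0.291 CPM. Nefm, Gfap and Krt80 passed the filter on low counts only through the group in which they were higher, so no test is given for them. These 4 genes rest on a mean of 7.0 to 13.8 reads per library and were chosen for mention once their values were known.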
